A study of Mus musculus with 2 samples.

Results

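A20 is a mouse B-cell lymphoma line, and 616 of the 4975 cell barcodes from subcutaneous A20 tumours were taken as tumour cells in S phase. A barcode was ranked if under 10% of its unique molecular identifiers (UMIs) were mitochondrial and it had at least 200 genes, at least 1 Cd79a UMI, no Cd3d, Cd3e or Cd3g UMI and no Lyz2 UMI. Each ranked cell was scored by its UMIs per 10000 for 3 gene sets, and the members were chosen by these measured scores: the S rank was the highest of the 3 and at least 0.8. The S set was every gene whose symbol starts with Hist1h. The G2/M set was Ube2c, Plk1, Cdc20, Ccnb1, Aurka, Cenpf, Hmmr and Cenpa, and the G1/S set was Ung, Cdc6, Mcm3, Mcm6, Gins2 and Dut. The members were 287 of 1754 ranked cells (16.4%, exact 95% interval 14.7 to 18.2) in the TAK-981 arm and 329 of 2191 (15.02%, 13.5 to 16.6) in the vehicle arm.

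The TAK-981 library came from tumours of Balb/c mice 8 h after 7.5 mg/kg of TAK-981 into a vein, and the vehicle library from tumours 8 h after 20% HPbCD by the same route. TAK-981 is a small-molecule inhibitor of the SUMO-activating enzyme. All mice had been given 1000000 A20 cells under the skin of the left flank and were treated once tumours had reached about 300 mm3. Each arm is 1 single-cell library and the labels do not give the number of tumours pooled in it, so no difference between the arms has a replicate check. Every interval below covers counting error only, and treatment cannot be told apart from library or animal.

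During S phase a cell copies its DNA and must package the new copies at once, so replication-dependent histone genes are switched on together and their messages are removed when replication ends. Most of these genes lie in a few clusters, of which Hist1 is the largest. Their messages usually end in a stem-loop that the protein Slbp binds, without the poly(A) tail that the library kit's primer captures, so histone UMIs count only the molecules that were captured. The rest of the S-phase programme, which includes nucleotide synthesis, polymerases and origin factors, is under E2F control and starts at the G1/S boundary.

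The start regions of the genes that the histone and interferon results turn on are printed from RefSeq on GRCm38.p6, in the direction of the named gene. Capitals in the 3 histone sequences mark 3 motifs on either strand. The first is TATAAA, where the basal transcription machinery can bind near the start site. The second is CCAAT, a common promoter box that the factor NF-Y can bind. The last is the octamer ATTTGCAT, which the factor Oct-1 can bind. Capitals in the Isg15 sequence mark 3 overlapping matches to a pair of GAAA separated by any 2 bases, the core of an interferon-stimulated response element. Hist1h2ae and Hist1h2bg run away from each other, and the first sequence is all 179 bases between their start sites. The other 3 are the 250 bases before the start site.
Hist1h2ae and Hist1h2bg, chr13:23571221-23571399, minus strand: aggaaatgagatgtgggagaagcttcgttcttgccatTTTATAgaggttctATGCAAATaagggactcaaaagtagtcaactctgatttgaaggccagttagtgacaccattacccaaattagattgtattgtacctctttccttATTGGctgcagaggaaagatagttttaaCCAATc
Hist1h1b, chr13:21780626-21780875, minus strand: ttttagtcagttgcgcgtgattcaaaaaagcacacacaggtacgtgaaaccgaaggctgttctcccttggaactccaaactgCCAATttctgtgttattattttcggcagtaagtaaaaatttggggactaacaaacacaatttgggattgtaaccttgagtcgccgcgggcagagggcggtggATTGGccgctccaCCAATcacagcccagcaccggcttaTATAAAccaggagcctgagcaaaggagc
Hist1h4d, chr13:23581318-23581567, plus strand: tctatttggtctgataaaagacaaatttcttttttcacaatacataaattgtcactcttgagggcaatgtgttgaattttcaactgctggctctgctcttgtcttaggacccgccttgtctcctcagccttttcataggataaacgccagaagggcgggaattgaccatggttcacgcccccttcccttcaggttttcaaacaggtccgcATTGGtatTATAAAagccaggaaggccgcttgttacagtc
Isg15, chr4:156200819-156201068, minus strand: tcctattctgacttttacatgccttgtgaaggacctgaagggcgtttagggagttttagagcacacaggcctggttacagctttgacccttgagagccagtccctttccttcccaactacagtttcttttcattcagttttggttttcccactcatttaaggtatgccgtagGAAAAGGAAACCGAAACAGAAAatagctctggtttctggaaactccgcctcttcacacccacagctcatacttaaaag

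Motifs were searched on both strands from 250 bases before to 50 after each RefSeq start site. Of the 45 Hist1h genes measured in members, 39 matched a promoter. CCAAT was present in 32 of these 39 (82.1%), against 37.4% of all 32851 promoters, and TATAAA in 25 (64.1%), against 13.6%. Among these promoters the octamer ATTTGCAT was in H2A and H2B genes alone, in 4 of 10 H2A and 4 of 9 H2B promoters, against 1.74% of all promoters. A match between divergent genes such as Hist1h2ae and Hist1h2bg counted for both, so the H2A and H2B counts are not independent. CCAAT was in 3 of 10 H4 promoters and in every H1, H2A, H2B and H3 promoter matched. The E2F-type letters TTTCCCGC were in 10 of 60 promoters of replication genes (16.7%) and TTTGGCGC in 5 (8.33%), against 1.07% and 0.514% of all promoters. Among Hist1h promoters, 1 held TTTCCCGC and none held TTTGGCGC. The interferon-response core, a motif chosen after the values were seen, was in 16 of 33 promoters of interferon-list genes (48.5%) and no Hist1h promoter, against 3.44% of all promoters. A match describes letters and does not show a bound site.

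The matrices held 37470319 UMIs in the TAK-981 arm and 57471750 in the vehicle arm, and members had median depths of 18392 and 28514 UMIs per cell. Depth differed between the arms in every class of cells, so levels are given per 10000 UMIs or per 1000000 UMIs (CPM), and values per cell after thinning each cell to 4000 UMIs. The libraries shared 11 barcodes, and none of these was a member in both. CD3 genes were at 0 in members by the rule, and Cd14, Csf1r, Adgre1 and all 5 neutrophil markers were also at 0. The other T-cell markers gave 17 UMIs in 12 TAK-981 members and 29 UMIs in 22 vehicle members. A few barcodes held other markers: 1 TAK-981 member had 41 NK-cell UMIs, 1 vehicle member had 47, and 1 vehicle member had 70 monocyte and macrophage UMIs. Summed monocyte and macrophage markers ran to 0.0903 UMIs per 10000 in TAK-981 members and 0.120 in vehicle members. The dendritic-cell list was not informative here, since its UMIs were found in 142 of 287 TAK-981 members and in 642 of 1467 other A20 cells of the same library.

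The S score that chose the members had a median of 23.2 UMIs per 10000 in TAK-981 members and 2.75 in the other A20 cells of that library. In the vehicle library the medians were 22.8 in members and 2.24 in other A20 cells. Scores of the 10 members just inside the threshold ran between 12.9 and 13.2, and those of the 10 cells just outside between 12.5 and 12.8. Cells with at least 3 Lyz2 UMIs and no Cd79a, which should hold little histone message, had a median of 1.52 in the TAK-981 arm and 1.45 in the vehicle arm. Cells with at least 3 CD3 UMIs and no Cd79a had medians of 3.70 in the TAK-981 arm and 1.39 in the vehicle arm. Summed over those CD3 cells the level was higher, at 15.6 and 12.04 UMIs per 10000, so some of them held much Hist1h message. Of the cells with an S rank of at least 0.8, 51 in the TAK-981 arm and 39 in the vehicle arm ranked higher in G2/M and 29 and 55 ranked higher in G1/S, so they are not members.

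The members graded into the neighbouring stages. A G2/M rank of at least 0.8 was found in 54 TAK-981 members (18.8%, 14.5 to 23.8) and 64 vehicle members (19.5%, 15.3 to 24.1). A G1/S rank of at least 0.8 was found in 35 TAK-981 members (12.2%, 8.64 to 16.6) and 73 vehicle members (22.2%, 17.8 to 27.1). These intervals treat cells as replicates and the rank is one the rule used, so they do not test the arms. The crossing class of G1/S cells, set by the same ranks, held 13.1% of ranked TAK-981 cells and 20.0% of ranked vehicle cells. The G1/S set itself was lower in other A20 cells of the TAK-981 arm (log2 ratio over vehicle -0.33).

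Among histone genes the linker histones and H2A supplied most of the members' signal. Of 55 Hist1h genes in the files, 45 had at least 10 UMIs in members of both libraries together, 6 had fewer and 4 had none. Hist1h2ae (H2A), Hist1h1e and Hist1h1b (linker histones) and Hist1h2ap (H2A) together held 54.0% of Hist1h UMIs in TAK-981 members and 59.4% in vehicle members. Near-identical copies share sequence, so the split of reads between single histone genes is uncertain, and sums over a type are firmer. These levels chose the members and are given as a description.

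Summed over the cluster, Hist1h genes gave 28.8 UMIs per 10000 in TAK-981 members and 27.1 in vehicle members, a ratio of 1.06 (1.04 to 1.08). The log2 ratio of 0.09 was -0.033 when cells over 2 times the median UMIs were left out, so no direction is read from it. H1 genes gave 10.4 in TAK-981 members and 9.94 in vehicle members (log2 ratio 0.07, 0.03 to 0.12). H4 genes gave 2.14 UMIs per 10000 in TAK-981 members and 1.39 in vehicle members (log2 ratio 0.62, 0.50 to 0.73). H3 genes gave 3.18 in TAK-981 members and 2.76 in vehicle members (log2 ratio 0.21, 0.12 to 0.29). H2A genes, the largest group, gave 12.01 in TAK-981 members and 12.11 in vehicle members (log2 ratio -0.01, -0.05 to 0.03).

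Single genes of 1 type differed from each other. Hist1h2ae stood at 602 CPM in TAK-981 members and 600 in vehicle members. Hist1h2ap was lower, at 257 in TAK-981 members and 306 in vehicle members (log2 ratio -0.26, -0.35 to -0.17), and Hist1h1b was at 291 and 321 (-0.14, -0.23 to -0.06). Hist1h1a, a linker histone, was higher, at 123 in TAK-981 members and 76.2 in vehicle members (0.69, 0.54 to 0.84). Hist1h4d was at 118 in TAK-981 members and 76.3 in vehicle members (0.63, 0.48 to 0.78). The remaining genes among the 10 with most UMIs, Hist1h1e, Hist1h2al, Hist1h3e, Hist1h1d and Hist1h2ak, had log2 ratios between -0.02 and 0.22. In the other A20 cells the same comparison gave 0.30 for Hist1h1a and 0.37 for Hist1h4d.

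**Figure D1:**
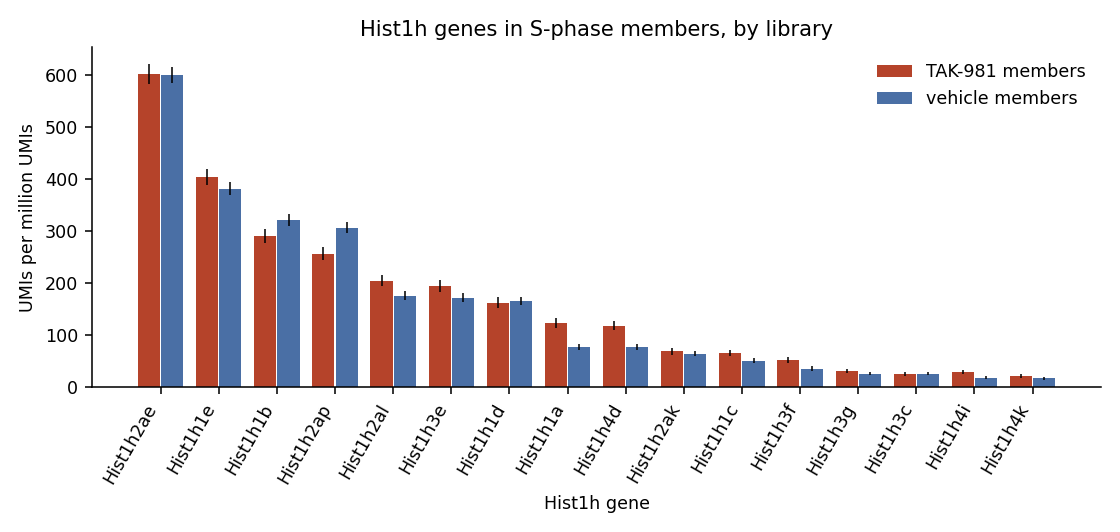
CPM of the 16 Hist1h genes with most UMIs, summed over 287 TAK-981 members and 329 vehicle members, with exact Poisson 95% intervals for counting error. Hist1h2ae stands at 602 and 600, while Hist1h1a and Hist1h4d are visibly higher in TAK-981 members.

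Histone genes outside the Hist1 cluster, which the rule did not use, were also higher in members. Near-identical copies share sequence, so some reads of Hist1h genes could be counted here. The result is therefore not a check independent of the rule. The 14 genes of the Hist2, Hist3 and Hist4 loci summed to 2.32 UMIs per 10000 in members and 0.748 in other A20 cells of the TAK-981 library, a ratio of 3.10 (2.89 to 3.32). In the vehicle library they summed to 1.73 in members and 0.558 in other A20 cells, a ratio of 3.10 (2.91 to 3.30). Of the 11 measured, 9 were at least 2-fold higher in members in each library, against 4.58% of all genes in the TAK-981 arm and 3.78% in the vehicle arm. In the vehicle library 1 of the 11 was at least 2-fold lower, against 1.91% of all genes. Hist2h2ac, an H2A gene, was at 40.6 CPM in members and 8.61 in other A20 cells of the TAK-981 library, and at 30.3 and 5.75 in the vehicle library. Hist3h2ba, an H2B gene, was at 96.9 in members and 38.6 in other A20 cells of the TAK-981 library, and at 65.0 and 27.9 in the vehicle library. Between the arms these genes were 1.34-fold (1.25 to 1.44) higher in TAK-981 members than in vehicle members, and 1.34-fold (1.26 to 1.42) higher in the other A20 cells.

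Of the 12 genes named as highest in members of both libraries, the first was Gm20628, a non-coding transcript annotated on chromosome 3 (96267075 to 96270289 of GRCm38, minus strand). It lies antisense to Hist2h3b and Hist2h2bb and overlaps both, and whether the counting used strand is not recorded in the labels, so its reads and theirs cannot be told apart. It had 36.1 CPM in members and 3.07 in other A20 cells of the TAK-981 library, and 21.1 and 2.84 in the vehicle library. Both entries with the symbol Hist2h2bb, Hist4h4 and Hist2h4 were among these 12 as well.

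The other genes highest in members were Neil3, Lrr1, Pidd1, E2f7 and Fbxo5. Neil3, a DNA glycosylase, was at 30.5 CPM in members and 8.23 in other A20 cells of the TAK-981 library, and at 29.8 and 9.43 in the vehicle library. Lrr1, which takes part in unloading the replicative helicase, was at 48.3 in members and 13.7 in other A20 cells of the TAK-981 library, and at 38.1 and 14.1 in the vehicle library. Fbxo5 (Emi1), which restrains the anaphase-promoting complex from late G1 to G2, was at 102 in members and 37.7 in other A20 cells of the TAK-981 library, and at 87.3 and 35.3 in the vehicle library. The repressor E2f7 had log2 ratios of 1.55 and 1.31, and Pidd1, a death-domain protein, 1.64 and 1.36. Ccl5 met the same rule, but 97.1% of the TAK-981 members' UMIs and 87.9% of the vehicle members' UMIs were in 1 cell each.

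Replication genes outside the rule were higher in members as a group. The 73 genes measured were those for nucleotide supply, polymerases, fork factors and origins. The median log2 ratio was 0.78 in the TAK-981 arm and 0.56 in the vehicle arm, beside 0.17 and 0.18 over all genes. At least 2-fold higher were 15 of 73 in the TAK-981 arm, against 4.58% of all genes, and 6 of 73 in the vehicle arm, against 3.78%. None was 2-fold lower in either, against 2.92% and 1.91% of all genes.

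Among nucleotide-supply genes, Tyms (thymidylate synthase) was at 221 CPM in members and 85.5 in other A20 cells of the TAK-981 library, and at 219 and 105 in the vehicle library. Rrm2, the ribonucleotide reductase subunit that was given as a marker, was at 160 in members and 78.4 in other A20 cells of the TAK-981 library, and at 166 and 105 in the vehicle library. After thinning, 36.2% (30.7 to 42.1) of TAK-981 members and 17.5% (15.5 to 19.5) of other A20 cells held an Rrm2 UMI, and without thinning 75.3% and 34.1%. In the vehicle library 41.0% (35.7 to 46.6) of members and 22.0% (20.2 to 24.0) of other A20 cells held one after thinning, and 82.4% and 45.6% without it.

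Among origin factors, Cdc45, a subunit of the active helicase, was at 74.5 CPM in members and 30.2 in other A20 cells of the TAK-981 library, and at 75.9 and 40.4 in the vehicle library. Gins3, of the same helicase, had log2 ratios of 1.36 and 1.09, and Ticrr, needed to fire origins, 1.31 and 1.04. Among polymerases, Prim1 (primase) had 0.99 and 0.79 and Pold3 1.04 and 0.82, while Pold4 had -0.04 and -0.004. Among fork factors, Clspn, which relays the checkpoint at stalled forks, was at 150 in members and 58.8 in other A20 cells of the TAK-981 library, and at 142 and 72.3 in the vehicle library. Pcna, the sliding clamp, had 0.85 and 0.65.

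Genes for fork stress and repair had a median log2 ratio of 0.97 in the TAK-981 arm and 0.76 in the vehicle arm, and 13 of 27 and 7 of 26 were at least 2-fold higher, against 4.58% and 3.78% of all genes. Brca1, a homologous-recombination factor, had log2 ratios of 1.17 in the TAK-981 arm and 1.22 in the vehicle arm. The histone mRNA and chaperone list had medians of 0.50 and 0.43 over 23 genes, beside 0.17 and 0.18 over all genes. Slbp, which binds the histone stem-loop, was at 310 in members and 172 in other A20 cells of the TAK-981 library, and at 288 and 190 in the vehicle library.

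Set against the neighbouring stages, members lay between G2/M and G1/S cells for some genes and above both for others. Rrm2 stood at 160 CPM in members, 67.8 in G2/M cells, 248 in G1/S cells and 27.3 in the remaining cells of the TAK-981 library. In the vehicle library it stood at 166 in members, 63.7 in G2/M cells, 265 in G1/S cells and 39.0 in the remaining cells. The given marker Rrm2 was therefore highest in the G1/S cells in both libraries, while Tyms was highest in members, at 221 against 191 in G1/S cells in the TAK-981 arm and 219 against 186 in the vehicle arm.

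Over the 73 replication genes, the median log2 ratio of members over G2/M cells was 0.72 in the TAK-981 arm and 0.64 in the vehicle arm, and of members over G1/S cells -0.11 and -0.07. The medians over all genes in those comparisons were 0.20 and 0.17 over G2/M cells and 0.15 and 0.14 over G1/S cells. Over 30 mitotic genes outside the rule, members were below G2/M cells, with medians of -0.54 and -0.47, and above G1/S cells, with 0.74 and 0.83. Top2a, the topoisomerase that untangles sister chromatids, stood at 382 CPM in members, 325 in G2/M cells and 212 in G1/S cells of the TAK-981 library. In the vehicle library it stood at 379 in members, 293 in G2/M cells and 192 in G1/S cells. Ccnb2, a mitotic cyclin, was at 55.0 in members and 168 in G2/M cells of the TAK-981 library, and at 59.4 and 161 in the vehicle library. Hist2h2ac separated members from each neighbour, at 40.6 against 14.7 in G2/M cells and 13.02 in G1/S cells of the TAK-981 library, and at 30.3 against 8.58 and 6.88 in the vehicle library.

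**Figure D2:**
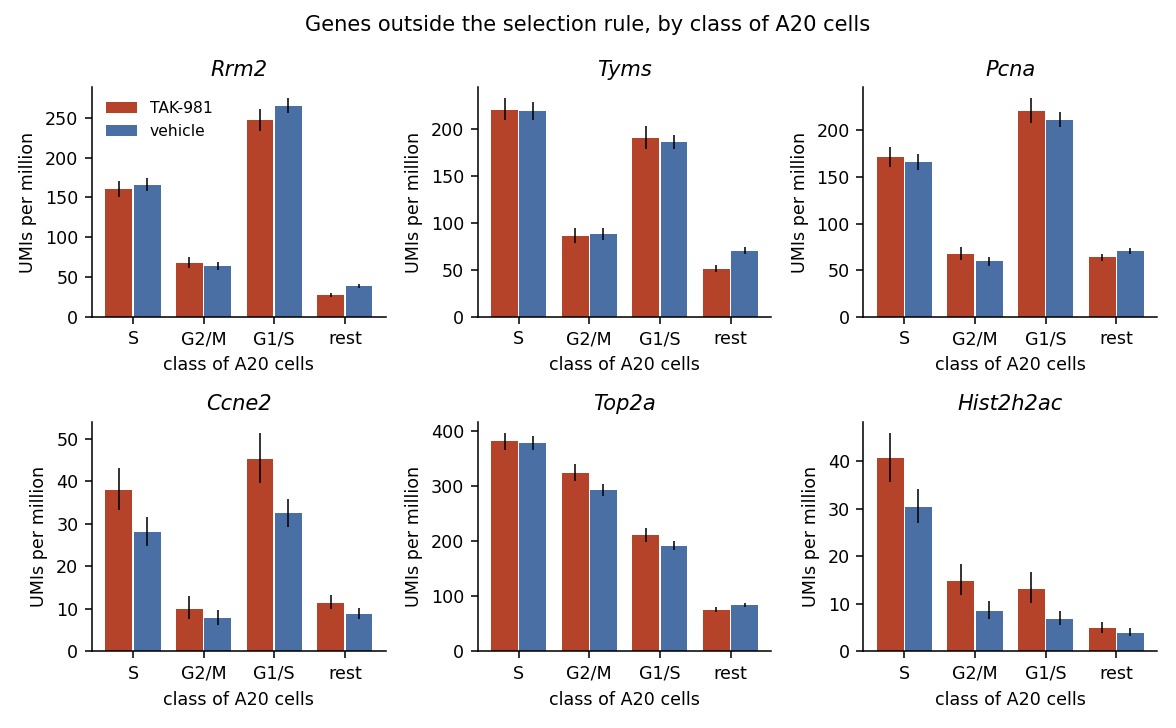
CPM of 6 genes outside the rule in members (S), G2/M, G1/S and remaining A20 cells of each library, with exact Poisson 95% intervals for counting error. Rrm2, Pcna and Ccne2 are highest in G1/S cells, Tyms, Top2a and Hist2h2ac in members.

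Against all other A20 cells together, the 30 mitotic genes outside the rule had a median log2 ratio of 0.78 in the TAK-981 arm and 0.63 in the vehicle arm. The pooled other cells include the remaining class, where mitotic genes are low. Mki67, the proliferation antigen, was at 505 CPM in members and 221 in other A20 cells of the TAK-981 library, and at 424 and 169 in the vehicle library. Among cyclins and E2F genes, 9 of 28 were at least 2-fold higher in the TAK-981 arm (all genes, 4.58%) and 5 of 29 in the vehicle arm (all genes, 3.78%). Ccne2 (cyclin E2) was at 37.9 in members and 17.6 in other A20 cells of the TAK-981 library, and at 28.0 and 14.9 in the vehicle library. Ccnd3 (cyclin D3) had log2 ratios of 0.00 and -0.11.

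The 9 measured genes of the oxidative and heme list were lower in members than in other A20 cells as a group, by the medians below. Ftl1, the ferritin light chain, was at 1369 CPM in members and 2206 in other A20 cells of the TAK-981 library, and at 1516 and 2339 in the vehicle library. Hmox1 (heme oxygenase) was at 99.5 in members and 161 in other A20 cells of the TAK-981 library, and at 151 and 239 in the vehicle library. The list of oxidative and heme genes had medians of -0.59 and -0.46, and that of hypoxia and glycolysis genes -0.39 and -0.15, beside 0.17 and 0.18 over all genes. Mgarp, a mitochondrial protein, was at 14.0 in members and 36.4 in other A20 cells of the TAK-981 library, and at 22.1 and 33.6 in the vehicle library. Kdm5b, a histone H3K4 demethylase, had log2 ratios of -0.84 and -0.65, and Mxd4, a repressor of MYC targets, -0.80 and -0.63. Hotairm1, Sccpdh and Gm10116 were also among the 8 lowest, with ratios between -1.16 and -0.65. The 22 B-cell identity genes had medians of -0.14 in the TAK-981 arm and -0.03 in the vehicle arm. Over G2/M cells the medians were 0.12 and 0.19, near the 0.20 and 0.17 over all genes. Over G1/S cells they were -0.14 and -0.13, and over the remaining cells -0.29 and -0.06. Cd79b was at 360 in members and 382 in other A20 cells of the TAK-981 library, and at 401 and 422 in the vehicle library.

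**Figure D3:**
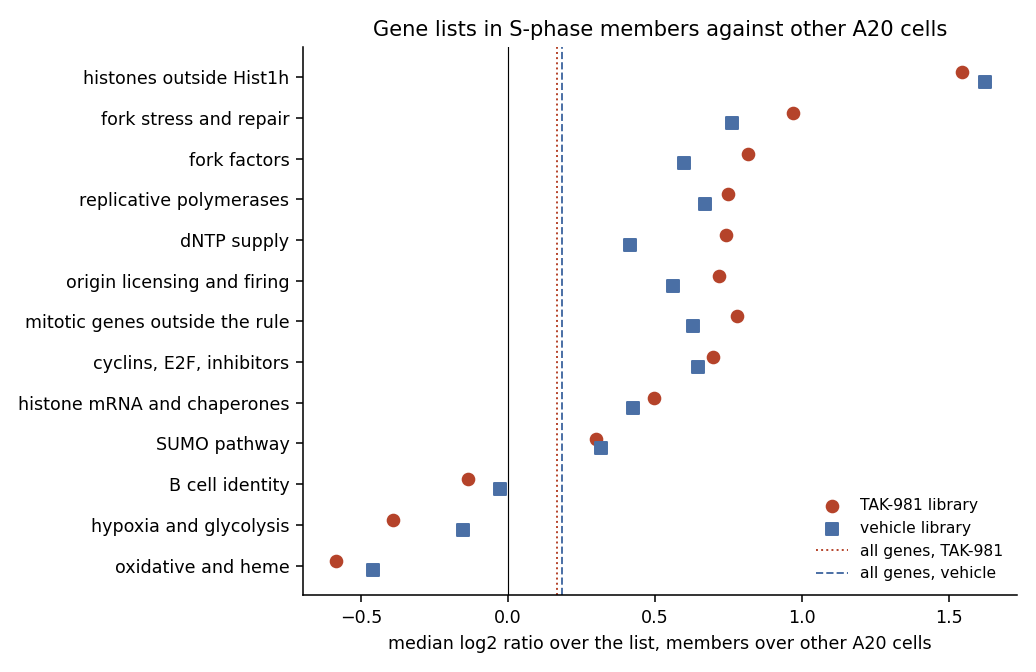
Median log2 ratio of UMI shares of members over other A20 cells for 13 gene lists, 1 point per library, with a dotted line at the all-gene median of 0.17 (TAK-981) and a dashed line at 0.18 (vehicle). Histones outside Hist1h lie highest, replication and mitotic lists lie between 0.41 and 0.97, and oxidative and heme genes lie lowest.

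TAK-981 members were set against vehicle members over 10652 genes with at least 10 UMIs in both together. Of these, 277 were at least 2-fold higher in TAK-981 members (2.6%) and 172 at least 2-fold lower (1.61%), and the median log2 ratio over all genes was 0.04. The counts depend on the setting, with 447 higher without cells over 2 times the median UMIs, and 93 higher and 22 lower at a minimum of 50 UMIs. In the other A20 cells 3.23% of genes were at least 2-fold higher and 1.43% at least 2-fold lower.

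The interferon-response list had the highest median of the lists compared. In TAK-981 members 31 of 43 genes with enough UMIs were at least 2-fold higher and none was 2-fold lower, and 42 had intervals wholly above 0. The median log2 ratio was 1.62 in members, 1.17 in G2/M cells, 1.32 in G1/S cells and 1.44 in the remaining cells. Summed over the list, members had 23.8 UMIs per 10000 in the TAK-981 arm and 13.5 in the vehicle arm. G2/M cells had 17.6 and 13.2, G1/S cells 18.3 and 13.4, and the remaining cells 17.99 and 11.996. Over 43 genes the ratio in members exceeded that in other A20 cells by a median of 0.28 on the log2 scale. This difference was not tested. The counting interval of a typical single gene around that median ran from -0.21 to 0.78, which spans 0. The median difference was 0.20 over the 73 replication genes and -0.24 over 18 hypoxia and glycolysis genes. It was not computed over all genes. The median log2 ratio over all genes was 0.04 in members and 0.05 in other A20 cells.

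Isg15, a ubiquitin-like modifier, had 582 UMIs in 69 TAK-981 members and 51 UMIs in 36 vehicle members (log2 ratio 4.13, 3.71 to 4.57). Usp18, the protease that removes it, had 401 UMIs in TAK-981 members and 45 in vehicle members (3.77, 3.33 to 4.25). Irf7, a transcription factor of the response, had 569 UMIs in TAK-981 members and 154 in vehicle members (2.50, 2.24 to 2.77). The TAK-981 member with most held 12.2% of the Isg15 UMIs, 13.2% of the Usp18 UMIs and 7.38% of the Irf7 UMIs of its group.

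Ifit3 had 64 UMIs in 12 TAK-981 members and none in vehicle members, which puts it at least 32.7-fold higher against a floor of 3 UMIs over the group. Mx1, an antiviral GTPase, had 57 UMIs in 10 TAK-981 members and none in vehicle members. Rtp4 had 85 UMIs in TAK-981 members and 1 in vehicle members, Ifit1 50 and 2, and Oasl1 69 and 9. Ifit3b had 18 UMIs in TAK-981 members and none in vehicle members. Ifi47, an immunity-related GTPase, had 205 and 33. Genes of antigen processing differed less, and Psmb9 had a log2 ratio of 0.39 (0.29 to 0.49) and Psmb8 0.01 (-0.06 to 0.07).

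Cxcl10, a chemokine for CXCR3-bearing T cells, differed between members and other A20 cells in its ratio. It had 240 UMIs in 35 TAK-981 members and 21 UMIs in 17 vehicle members (log2 ratio 4.13, 3.49 to 4.85). In other A20 cells it had 124 UMIs in the TAK-981 arm and 151 in the vehicle arm (0.44). The member with most held 20.4% of the TAK-981 members' UMIs. By class, it was at 39.4 CPM in TAK-981 members and 4.39 in G2/M cells, 4.34 in G1/S cells and 4.93 in the remaining cells of that library. Vehicle members had 2.25 CPM, against 2.89 in G2/M cells, 7.13 in G1/S cells and 1.79 in the remaining cells of their library, so G1/S cells were highest there.

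**Figure D4:**
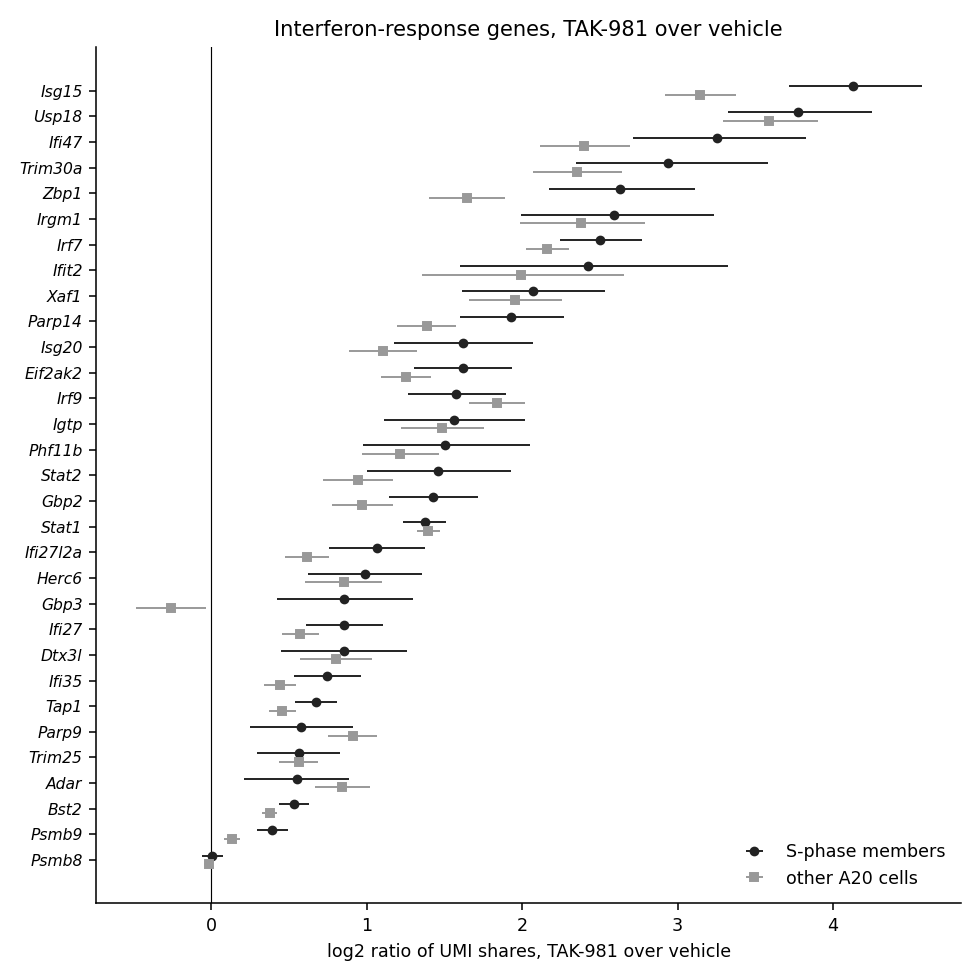
Log2 ratio of UMI shares, TAK-981 over vehicle, for 31 interferon-response genes with at least 50 UMIs in TAK-981 members and 10 in vehicle members, with exact 95% counting intervals. Circles for S-phase members lie to the right of squares for other A20 cells in most rows, Isg15 standing at 4.13 in members. The UMI filter was set on members alone and asked more of TAK-981 members, so it favours genes with a high ratio in members.

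The response was uneven between cells. After thinning, members had a median of 7 interferon-list UMIs in the TAK-981 arm and 5 in the vehicle arm, and other A20 cells 6 and 5. The highest vehicle member had 24. Above that level were 18 TAK-981 members (6.27%, 3.76 to 9.73), 40 other A20 cells of the TAK-981 library (2.73%, 1.95 to 3.69) and 6 other A20 cells of the vehicle library (0.322%, 0.118 to 0.7). Since the level was taken from the vehicle members, none of them could exceed it. Those 18 members held 29.0% of the interferon-list UMIs of TAK-981 members, and 4 of them had at least 3 UMIs of the other cell types' markers. Without them, a choice that lowers the value by construction, the list median was 0.91 and at least 2-fold higher were 19 of 40 measured genes.

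**Figure D5:**
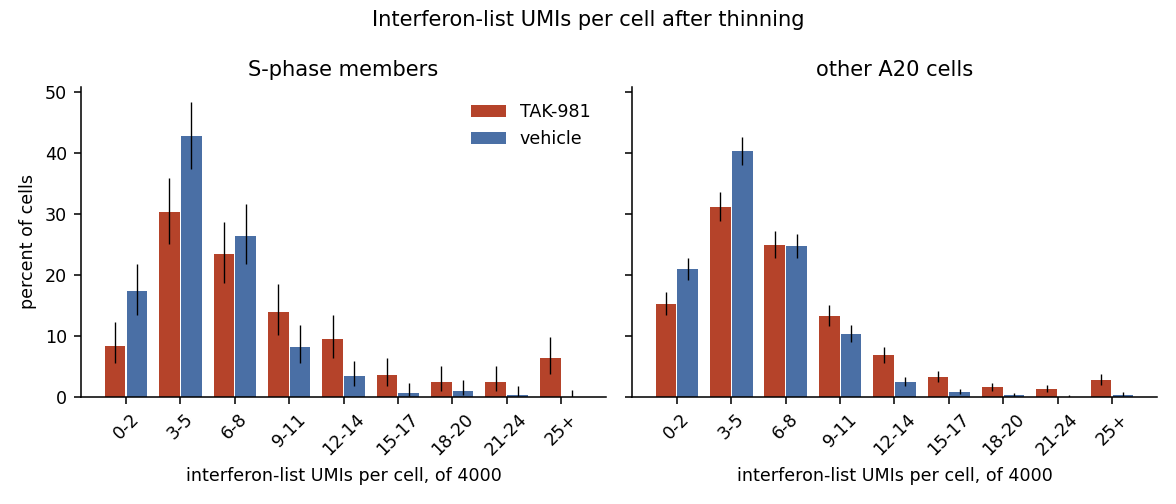
Percent of cells by number of interferon-list UMIs after thinning to 4000 UMIs, in S-phase members (left) and other A20 cells (right), with exact binomial 95% intervals for counting error. The bin of 25 or more holds 6.27% of TAK-981 members and no vehicle member.

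Members of the TAK-981 library differed by the stage they leaned to. Of them, 131 ranked higher in G1/S than in G2/M (45.6%, 39.8 to 51.6) and 156 leaned to G2/M, and in the vehicle library 174 leaned to G1/S (52.9%, 47.3 to 58.4) and 155 to G2/M. G1/S-leaning over G2/M-leaning members had a median log2 ratio of 0.32 over replication genes in each library. Over the interferon list it was -0.55 in the TAK-981 arm and 0.11 in the vehicle arm. The split uses the ranks of the rule, and the median over all genes was not computed for it. Few TAK-981 members held much of the interferon-list UMIs, and how those cells fell between the leaning groups was not counted. Isg15 was at 52.3 CPM in G1/S-leaning and 132 in G2/M-leaning TAK-981 members, and at 5.66 and 5.24 in vehicle members.

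Members low in both other sets made up a larger share of TAK-981 members than of vehicle members. The ranks are those of the rule, taken over both libraries together. The G1/S set was also lower in other A20 cells of the TAK-981 arm (log2 ratio over vehicle -0.33). The shares therefore cannot show a difference particular to members, and an effect of treatment on them was not tested. A G1/S rank and a G2/M rank both under 0.5 were found in 29 TAK-981 members (10.1%, 6.87 to 14.2) and 12 vehicle members (3.65%, 1.90 to 6.28). Their median depths were 10423 and 14722.5 UMIs, below those of the remaining members at 19392 and 29250. In the TAK-981 library Rrm2 was at 22.7 CPM in these 29 and 169 in the remaining members, and Hist1h1b at 71.0 and 304. Hist1h1c, a linker histone gene that can give polyadenylated message outside S phase, was at 304 in these 29 and 50.5 in the remaining members. The same gene was at 188 in the 12 vehicle members of this kind and 47.8 in the remaining vehicle members. Hist1h2ae was at 324 in the 29 TAK-981 cells and 619 in the remaining TAK-981 members. Top2a was at 111 CPM in these 29 and 398 in the remaining members, Mki67 at 182 and 525, and Tyms at 68.1 and 230. In the 12 vehicle members of this kind Rrm2 was at 29.4, against 169 in the remaining vehicle members. These cells were picked for low G1/S and G2/M ranks, so the low levels of these genes are a description. Their place in S phase rests on the Hist1h score alone and is not borne out by these markers. These cells had a median of 12 interferon-list UMIs after thinning in the TAK-981 library, against 6.5 in the remaining members, and of 4.5 against 5 in the vehicle library.

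Replication genes themselves differed little between the arms. Over 73 genes the median log2 ratio in members was -0.04, none was 2-fold higher or lower, and in the other A20 cells the median was -0.17. Rrm2 was at 160 CPM in TAK-981 members and 166 in vehicle members (-0.05, -0.17 to 0.07). Samhd1, a dNTP hydrolase that is also interferon-inducible, was at 161 in TAK-981 members and 84.5 in vehicle members (0.93, 0.79 to 1.06). Rrm2b, the p53-inducible reductase subunit, was at 69.8 in TAK-981 members and 41.9 in vehicle members (0.74, 0.54 to 0.94). The fork stress and repair list had a median of 0.11, and the mitotic list -0.03.

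Genes of the SUMO pathway had a median log2 ratio of 0.20 in members, and 2 of 25 were at least 2-fold higher, against 2.6% of all genes. In the other A20 cells the median was 0.16 and 2 of 25 were also at least 2-fold higher. These were Pml, at 17.6 CPM in TAK-981 members and 7.28 in vehicle members (1.27, 0.82 to 1.73), and Sp100, at 54.7 and 23.3 (1.23, 0.98 to 1.48). Both encode SUMO-modified nuclear-body proteins and are also interferon-inducible. Sumo3 was at 162 in TAK-981 members and 108 in vehicle members (0.58, 0.45 to 0.71). Uba2, a subunit of the enzyme that TAK-981 inhibits, was at 203 in TAK-981 members and 222 in vehicle members (-0.13, -0.23 to -0.03). Among cell-cycle inhibitors, Rbl2 was at 10.7 in TAK-981 members and 4.92 in vehicle members (1.12, 0.55 to 1.69).

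Among the genes named as lower in TAK-981 members, Fos had the most UMIs. Fos, an AP-1 subunit, had 494 UMIs in TAK-981 members and 2137 in vehicle members (log2 ratio -1.496, -1.64 to -1.35), and -1.14 in the other A20 cells. Nr4a1, an orphan nuclear receptor, had 8 UMIs in TAK-981 members and 61 in vehicle members, 32.8% of them in 1 cell, and Fosl1 2 and 30. Fos was also higher in members than in other A20 cells, at 81.1 CPM against 57.9 in the TAK-981 arm and 229 against 128 in the vehicle arm. Gm26802, a non-coding RNA, had 19 UMIs in TAK-981 members and 165 in vehicle members (-2.50), Gmfg 40 and 174 (-1.504), Fam46c 6 and 44, and Cblc 3 and 34.

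Cdkn1a (p21), an inhibitor of cyclin-dependent kinases, had 20 UMIs in 10 TAK-981 members and 89 UMIs in 22 vehicle members, 37.1% of them in 1 cell (log2 ratio -1.54, -2.32 to -0.83). In the other A20 cells it had 127 UMIs in the TAK-981 arm and 151 in the vehicle arm (0.48, 0.13 to 0.83). The p53-target list as a whole had a median of 0.01. Among stress-response genes, Chac1 was at 31.2 CPM in TAK-981 members and 11.3 in vehicle members (1.46, 1.11 to 1.82), and Cebpb at 36.3 and 69.2 (-0.93, -1.16 to -0.71). The hypoxia and glycolysis list had a median of -0.33 in members and 0.07 in other A20 cells. Ldha (lactate dehydrogenase) was at 963 in TAK-981 members and 1280 in vehicle members (-0.41, -0.46 to -0.37).

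Several genes with large ratios rested on 1 to 5 cells of a library. Klk1 and Myh11 had 37 and 27 UMIs in 1 vehicle member each and none in TAK-981 members. Plac8 had 28 UMIs in 2 vehicle members, and Siglech and Tyrobp, which mark plasmacytoid dendritic and myeloid cells, had 19 and 58 in 3 each. Dppa5a had 28 UMIs in 4 TAK-981 members and 1 in vehicle members, and Cfap53 42 UMIs in 5 and 3 UMIs in 3. 2210414B05Rik had 11 UMIs in 3 TAK-981 members and Gzma 30 in 2, while Tmem176b had 12 in 9. What these few barcodes contribute to other ratios was not tested.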

How the data were processed

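Per the labels' protocols, tumours were dissociated, filtered at 70 µm, cleared of dead cells and loaded for a target of about 3000 droplets with a 10x 5' kit on poly(A) RNA. The authors deposited a matrix of UMI counts per gene and cell for each library. The submitters' processing notes name Cell Ranger 2.1.1 and Seurat 2, and the genome build and strand setting of the counting were not given in the sources used here. Counts of 28692 genes were read as deposited, and 58 symbols given to more than 1 gene were kept apart by identifier. Cells were filtered and ranked over both libraries together as described above. No doublet caller was run, and cells over 2 times the median UMIs were left out as an alternative.

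UMIs were summed over cells and given per 1000000 (CPM) or per 10000. With 1 library per arm no test was possible. Log2 ratios carry exact conditional binomial 95% intervals, shares Clopper-Pearson intervals, and a sum of 0 was set to a floor of 3 counts over the group. Genes with at least 10 UMIs in both groups together were measured. Named genes were the 10 Hist1h genes with most UMIs, the 12 highest and 8 lowest in members (at least 50 UMIs in each library), the 12 farthest above and 12 farthest below 0 between arms, the 6 with the largest difference between members and other cells, and the leading genes of each list. Single genes outside that rule, among them Ccnb2 and Hist1h1c, were chosen after their values were seen. The members and lists were chosen with earlier results of these data known. The interval code was tested on simulated data. Versions were Python 3.11.15, pandas 2.3.3, scipy 1.17.1, matplotlib 3.10.9 and numpy 2.4.6.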

Additional observations from a re-analysis of the deposited data

Results flagged for a closer look

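Among the named genes, 11 had TAK-981 over vehicle intervals on opposite sides of 0 in S-phase members and in other A20 cells. The named genes were partly picked for a large difference between these groups, and such genes were not counted over all genes. Of the 10652 genes measured in members, 714 had intervals in members and in other A20 cells that did not overlap. For none of the 11 was the difference tested, since each arm is 1 library. Given as the members' log2 ratio minus that of other A20 cells, Plac8 differed by -3.51 and Tyrobp by -2.57, and 2 and 3 vehicle members held all of the vehicle members' UMIs of these genes. Cdkn1a differed by -2.01, with -1.54 in members and 0.48 in other A20 cells. Mt2, a metallothionein, differed by -0.70, with -0.50 in members and 0.20 in other A20 cells. Cdc25b, a phosphatase that activates Cdk1, differed by -0.56, with -0.34 in members and 0.21 in other A20 cells. Jchain, the joining chain of secreted antibodies, differed by -0.20. In the other direction, Dna2, a nuclease and helicase of DNA replication, differed by 0.68, with 0.34 in members and -0.33 in other A20 cells. Slbp differed by 0.25, Orc6 (an origin recognition subunit) by 0.25, Usp1 (a deubiquitinase of Pcna) by 0.20 and Hmgb2 (a chromatin protein) by 0.12.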

How the results depend on the processing

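Of 168 values recomputed under the alternatives, 141 stayed within the counting interval of the main value, or within 1.5 times of it for a count (for a list median, the median of its genes' counting intervals, which is wide), 26 moved further and 1 turned its direction. The summed Hist1h log2 ratio of TAK-981 over vehicle members, 0.09, was -0.033 (-0.074 to 0.0069) without cells over 2 times the median UMIs, 0.14 at a rank threshold of 0.9, 0.19 with ranks within each library, 0.15 with scores from thinned cells, 0.039 with median of ratios scaling and 0.058 with thinned sums. The share of members in the TAK-981 and vehicle libraries was 21.2% and 18.4% at a threshold of 0.7, 9.35% and 8.85% at 0.9, and 11.4% and 9.04% without members high in another set. The log2 ratio of histones outside Hist1h over other A20 cells, 1.63 in both libraries, was 1.79 at 0.9 in the vehicle library, 1.84 and 1.74 without cells over 2 times the median UMIs, 1.44 and 1.42 with median of ratios scaling, and 1.85 with thinned sums in the TAK-981 library. With median of ratios scaling the replication median in the vehicle library was 0.35, and the mitotic medians were 0.59 and 0.42, while that of the vehicle library was 0.86 without cells over 2 times the median UMIs. Genes at least 2-fold higher in TAK-981 members numbered 447 without cells over 2 times the median UMIs, 93 at a minimum of 50 UMIs and 583 at 1 UMI in each group, and genes at least 2-fold lower 22 and 292 under the last 2 settings. The cause was not tested. The interferon median, its difference from other A20 cells and the replication median between arms stayed within these intervals under every alternative run, including one chosen after seeing the data, in which cells with 3 or more UMIs of other cell types' markers were left out. No paired analysis was possible because each arm is 1 library, and for the same reason no replicate could be left out. Lower depth in the TAK-981 library limits genes with few UMIs there.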
